A study of Arabidopsis thaliana with 12 samples.

Results

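Transcripts of 10 sugar carriers were followed through shoots and roots of Arabidopsis thaliana seedlings: SWEET1, SWEET2, SWEET11, SWEET12, SWEET16 and SWEET17 of the SWEET family, SUC1 and SUC2 of the SUC family, and STP1 and STP13 of the STP family. The carriers were picked by gene identifier from the 33010 genes of the deposited table, and all 10 passed the filter on low values. Seedlings were 8 days old and had grown under constant white fluorescent light of 15 µE at 22 °C. CCA1-ox plants, which overexpress the circadian clock gene CCA1, were compared with wild-type Col-0 plants (WT) in each organ, with 3 libraries each of CCA1-ox shoots, WT shoots, CCA1-ox roots and WT roots. The labels give neither the promoter that drives CCA1 in CCA1-ox plants, nor the number of independent lines, nor the time of day of harvest. Nor do they say that the 3 libraries of a group came from separate cultures, so p-values cover the spread of these libraries alone, and that spread may be technical.

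Sugar made in leaves reaches the root through the phloem and has to cross membranes on the way. SWEET proteins are uniporters that let sugars pass down their concentration gradient, at the plasma membrane or at the tonoplast, the membrane of the vacuole. SUC proteins carry sucrose, and STP proteins carry hexoses such as glucose, into the cytosol together with protons. Both thus depend on the proton gradient across the membrane in which they sit. CCA1 is a MYB transcription factor that binds the evening element and a related motif, the CCA1-binding site, in the promoters of its targets.

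Stretches upstream of the carriers are shown because the overexpressed protein is known to bind such motifs. The 500 bases before each gene start in RefSeq's TAIR10.1 genome were searched on both strands for the evening element (AAAATATCT), the CCA1-binding site (AAAAATCT) and the G-box (CACGTG), a light-response motif bound by PIF and HY5 factors. A match describes letters in the window and is not a measured binding site. Capitals mark the match, written on the strand of the gene, and the matches did not overlap one another.
SUC2, evening element on the opposite strand, 490 bases upstream, chr1:8033627-8033656, minus strand: atAGATATTTTtacgctttcgtctgaaaat
STP13, evening element on the opposite strand, 308 bases upstream, chr5:9247837-9247866, minus strand: gactagttgtAGATATTTTgttccataatc
SWEET1, CCA1-binding site, 190 bases upstream, chr1:7513660-7513689, minus strand: tggtatcaagaAAAAATCTgtatatataca
STP1, CCA1-binding site on the opposite strand, 381 bases upstream, chr1:3776837-3776866, plus strand: ttgatgtgttaAGATTTTTgttgcaattca

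The evening element was thus found before 2 of the 10 carriers and before 4.33% of the 20872 genes tested whose windows could be read. The CCA1-binding site was found before another 2 carriers and before 12.2% of those genes. Both SUC carriers held a G-box close to the gene start, 7 bases upstream in SUC1 and 37 bases upstream in SUC2, and 9.84% of the genes held one within 500 bases. The 150 bases next to the start of the pair show where it lies, with the G-box in capitals.
SUC1, chr1:27053880-27054029, plus strand: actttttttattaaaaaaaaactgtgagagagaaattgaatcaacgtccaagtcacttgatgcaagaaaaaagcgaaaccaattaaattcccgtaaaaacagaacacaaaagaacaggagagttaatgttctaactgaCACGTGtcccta
SUC2, chr1:8033157-8033306, minus strand: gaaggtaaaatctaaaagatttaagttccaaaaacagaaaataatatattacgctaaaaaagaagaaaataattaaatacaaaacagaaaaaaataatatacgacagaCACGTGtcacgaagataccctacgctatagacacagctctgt

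Values are FPKM (fragments per kilobase of gene length, scaled to library size by the authors), which allow levels of different genes to be set side by side. The fragments recovered per library numbered between 37216665 and 39814773 for CCA1-ox shoots and between 39683894 and 44242304 for WT shoots, and between 27142671 and 38537638 for CCA1-ox roots and between 37773138 and 45051329 for WT roots. CCA1 itself stood at 214 ± 1.98 FPKM in CCA1-ox shoots and 44.96 ± 0.202 FPKM in WT shoots, and at 175 ± 4.36 FPKM in CCA1-ox roots and 17.1 ± 0.838 FPKM in WT roots (SD, n = 3 each), so it was higher where the labels say so. The summed level of 6 markers of photosynthetic tissue was 25872 to 26457 FPKM in CCA1-ox shoots and 36529 to 36770 FPKM in WT shoots, against 35.8 to 39.0 FPKM in CCA1-ox roots and 44.1 to 46.4 FPKM in WT roots. The summed level of 6 root markers was 352 to 365 FPKM in CCA1-ox roots and 241 to 250.2 FPKM in WT roots, against 19.7 to 22.0 FPKM in CCA1-ox shoots and 6.19 to 8.67 FPKM in WT shoots, where NRT2.1, a nitrate transporter gene, was at 0 in CCA1-ox shoots 2 and 3 and in WT shoots 2. In CCA1-ox shoots 4 of the 6 root markers were called higher, with PER64 at 1.54, CASP1 at 1.14 and MYB36 at 0.91. The root markers COBL9 (0.032) and NRT2.1 (0.0063) were not called there. Of the 6 photosynthetic markers 5 were called lower in CCA1-ox shoots. Among all genes tested 26.6% were called higher and 28.9% lower in shoots. In CCA1-ox roots 5 root markers were called higher, with IRT1 at 0.81, and 1 lower, NRT2.1 at −0.44. Among all genes tested 20.8% were called higher and 15.4% lower in roots. Of the photosynthetic markers 3 fell there and 1 rose, with log2 fold changes of −3.03 for LHCB1.3, −2.19 for RBCS1A, −0.98 for PSAD1 and 0.56 for LHCA4. LHCA4 made up most of their root sum in CCA1-ox, at 34.8 ± 1.37 FPKM in CCA1-ox roots and 23.2 ± 0.872 FPKM in WT roots. The part of these markers in the carrier values was not tested. No 50-base window of the exons of 9 carriers was found elsewhere in the genome, and 0.525% of the STP1 windows were. SWEET1 shares 52 bases with SCL1 (AT1G21450) and STP1 shares 438 bases with AT1G11270, each on the other strand, so fragments from those bases may belong to either gene if strand was not used in counting.

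Of the 10 carriers, 9 differed between CCA1-ox and WT shoots, 4 higher and 5 lower, at an adjusted p under 0.05 (limma on log2(FPKM + 1), Benjamini-Hochberg adjustment over 20975 genes). Among all genes tested 55.5% were called in shoots, 26.6% higher and 28.9% lower. In roots 7 carriers were called, 3 higher and 4 lower, where 36.3% of all genes were called, 20.8% higher and 15.4% lower. The median log2 fold change of the 10 carriers was −0.026 in shoots, beside −0.0083 over all genes tested, and −0.087 in roots, beside 0.016. Carriers moved in both directions in each organ. Of the called genes 48.0% were higher in shoots and 57.4% in roots with the deposited scaling, and 66.0% and 38.8% scaled to summed fragments. These shares were 41.7% and 50.2% with quantile normalization, and 51.0% and 55.5% with voom on recovered fragments. In a whole organ, fewer cells of a type and less RNA per cell cannot be told apart.

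**Figure D1:**
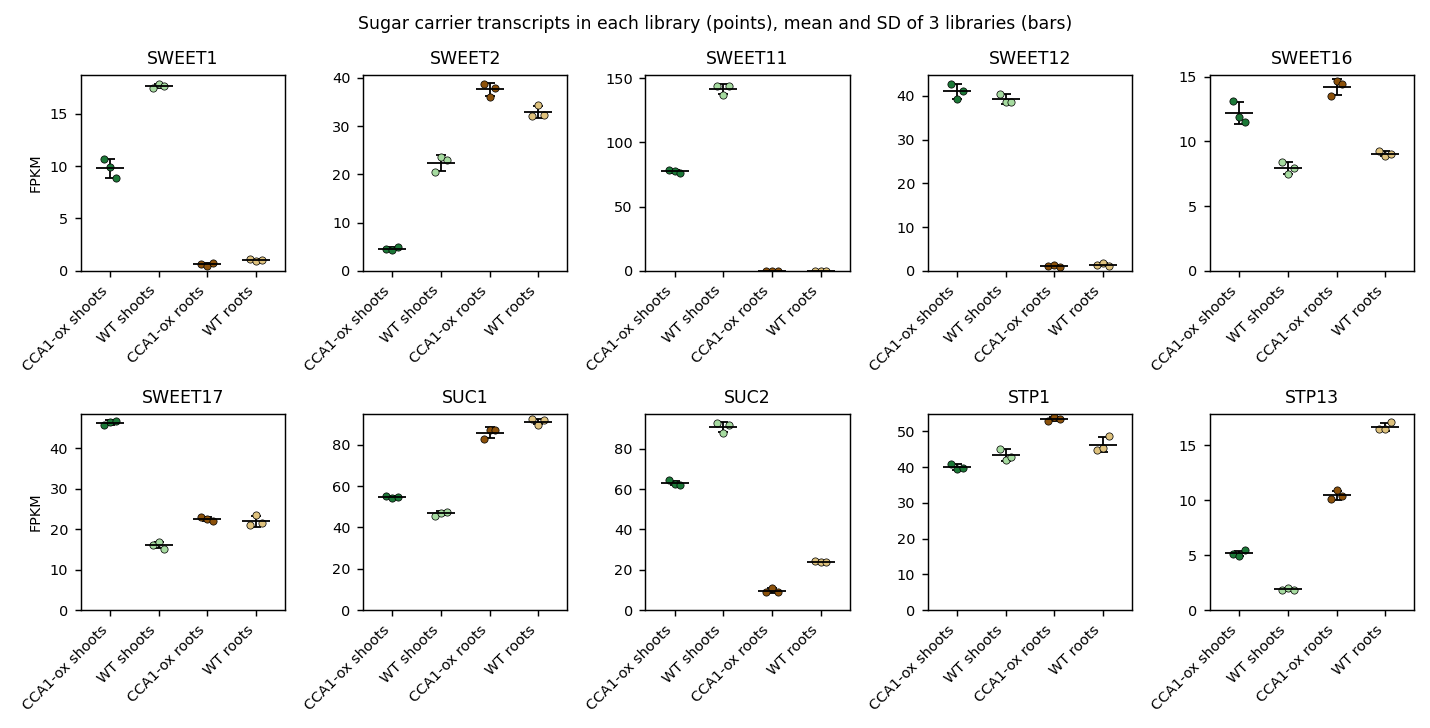
FPKM of each of the 10 carriers (vertical axes, from 0) in CCA1-ox shoots, WT shoots, CCA1-ox roots and WT roots. Points are libraries and bars the mean with SD of 3 libraries. SWEET2 is lowest in CCA1-ox shoots, SWEET17 is highest there, and SUC2 is lower in CCA1-ox than in WT in both organs.

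Among the 10 carriers the largest difference between CCA1-ox and WT was that of SWEET2 (AT3G14770, chromosome 3, 4957334 to 4959704 on TAIR10), a tonoplast glucose carrier known for holding sugar back in root cells. SWEET2 had 4.56, 4.27 and 4.99 FPKM in CCA1-ox shoots, against 20.5, 23.7 and 22.9 FPKM in WT shoots. The genotypes did not overlap, and the mean in CCA1-ox shoots was 0.206 times that in WT shoots (log2 fold change −2.06, SE 0.0582, adjusted p = 3.91e-12). In roots the order was the opposite and the difference small. SWEET2 had 38.7, 36.1 and 38.0 FPKM in CCA1-ox roots, against 32.0, 34.3 and 32.3 FPKM in WT roots, and the genotypes did not overlap (log2 fold change 0.19, SE 0.0582, adjusted p = 0.0224). That root call was lost with quantile normalization (adjusted p = 0.0955), scaled to summed fragments (log2 fold change 0.12, adjusted p = 0.123), and without WT roots replicate 1 (0.0776), WT roots replicate 3 (0.069), CCA1-ox roots replicate 1 (0.0765) or CCA1-ox roots replicate 3 (0.0623). SWEET2 was thus 8.16 times as abundant in CCA1-ox roots as in CCA1-ox shoots, and 1.47 times as abundant in WT roots as in WT shoots.

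SWEET17 (AT4G15920, chromosome 4, 9030486 to 9033648), a fructose carrier of the tonoplast, rose in CCA1-ox shoots. SWEET17 had 45.6, 46.4 and 46.8 FPKM in CCA1-ox shoots, against 16.1, 16.8 and 15.2 FPKM in WT shoots, a mean 2.89 times as high without overlap (log2 fold change 1.47, SE 0.0443, adjusted p = 7.34e-12). CCA1-ox shoots were the highest of all 12 libraries and WT shoots the lowest. In roots it had 22.9, 22.4 and 21.9 FPKM in CCA1-ox roots, against 21.0, 23.5 and 21.4 FPKM in WT roots, and the genotypes overlapped (log2 fold change 0.03, SE 0.0443, adjusted p = 0.664, 95% interval −0.066 to 0.13). That uncalled root difference changed sign with quantile normalization (−0.022), scaled to summed fragments (−0.034) and without WT roots replicate 1 (−0.0011). Its relative SWEET16 (AT3G16690, chromosome 3, 5684317 to 5686544), a tonoplast carrier of glucose, fructose and sucrose, rose in both organs. SWEET16 had 13.1, 11.9 and 11.5 FPKM in CCA1-ox shoots, against 8.43, 7.48 and 7.93 FPKM in WT shoots (log2 fold change 0.56, SE 0.0555, adjusted p = 1.62e-06). In roots it had 13.5, 14.6 and 14.4 FPKM in CCA1-ox roots, against 9.23, 8.84 and 9.03 FPKM in WT roots (log2 fold change 0.60, SE 0.0555, adjusted p = 2.12e-06). The genotypes overlapped in neither organ, and the means in CCA1-ox were 1.53 times the WT mean in shoots and 1.57 times in roots.

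SWEET11 and SWEET12, plasma membrane carriers that release sucrose from leaf phloem parenchyma for loading, did not move alike in shoots. SWEET11 (AT3G48740, chromosome 3, 18052466 to 18054832) was the most abundant of the 10 in WT shoots, with 78.6, 77.9 and 76.4 FPKM in CCA1-ox shoots, against 144, 137 and 144 FPKM in WT shoots. The CCA1-ox libraries were all lower, with a mean 0.547 times that of WT (log2 fold change −0.86, SE 0.0617, adjusted p = 6.05e-08). SWEET12 (AT5G23660, chromosome 5, 7971647 to 7973995) had 42.7, 39.2 and 41.2 FPKM in CCA1-ox shoots, against 40.5, 38.6 and 38.5 FPKM in WT shoots. These ranges overlapped and the difference did not pass (log2 fold change 0.063, SE 0.0884, adjusted p = 0.585, 95% interval −0.13 to 0.25). In roots SWEET11 rested on 1, 3 and 11 fragments in CCA1-ox libraries and 5, 18 and 10 in WT libraries, so a difference was not detectable at this depth (adjusted p = 0.324, limma). The level of SWEET11 in roots was 0.120% of that in shoots in CCA1-ox and 0.112% in WT. The photosynthetic markers, taken 1 by 1, ran from 0.000340% for RBCS3B to 0.954% for LHCA4 in CCA1-ox and from 0.000617% for CA1 to 0.668% for LHCA4 in WT, and 4 of the 6 lay below SWEET11 in each genotype. Their part in its root value was not tested. SWEET12 in roots had 1.12, 1.296 and 0.895 FPKM in CCA1-ox roots, against 1.38, 1.79 and 1.14 FPKM in WT roots, with overlap (log2 fold change −0.21, SE 0.0884, adjusted p = 0.0863). It was called lower there scaled to summed fragments (adjusted p = 0.0448), without WT roots replicate 3 (0.0167) or without CCA1-ox roots replicate 2 (0.0422).

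SWEET1 (AT1G21460, chromosome 1, 7511750 to 7513481), a glucose carrier of the plasma membrane, fell in CCA1-ox shoots and, at a low level, in CCA1-ox roots. SWEET1 had 10.6, 9.89 and 8.83 FPKM in CCA1-ox shoots, against 17.4, 17.9 and 17.7 FPKM in WT shoots, without overlap (log2 fold change −0.79, SE 0.0776, adjusted p = 1.33e-06). In roots it had 0.641, 0.453 and 0.740 FPKM in CCA1-ox roots, against 1.16, 0.974 and 1.001 FPKM in WT roots, again without overlap (log2 fold change −0.35, SE 0.0776, adjusted p = 0.00322). The root value was pressed toward 0 by the pseudocount of 1: it was −0.71 with a pseudocount of 0.1, −0.77 with voom on recovered fragments, and −0.11 with a pseudocount of 5, which ended the call (adjusted p = 0.0554). As a ratio of means, SWEET1 in CCA1-ox was 0.554 of WT in shoots and 0.585 of WT in roots. The root values rest on 25, 19 and 41 fragments in CCA1-ox libraries and 66 in each WT library. SCL1, which shares 52 bases with SWEET1 on the other strand, had 9.07 to 40.1 FPKM over all libraries. Its part in the SWEET1 values was not tested.

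SUC2 (AT1G22710, chromosome 1, 8030587 to 8033156), the sucrose/proton symporter of companion cells that loads the phloem, was lower in CCA1-ox in both organs. In shoots SUC2 had 64.3, 62.4 and 62.3 FPKM in CCA1-ox shoots, against 92.6, 88.0 and 91.6 FPKM in WT shoots (log2 fold change −0.52, SE 0.0518, adjusted p = 1.63e-06). In roots it had 9.13, 10.9 and 9.10 FPKM in CCA1-ox roots, against 24.2, 23.9 and 23.9 FPKM in WT roots (log2 fold change −1.23, SE 0.0518, adjusted p = 1.02e-09). The genotypes overlapped in neither organ, and CCA1-ox held 0.694 of the WT mean in shoots and 0.405 of it in roots. Of 10 phloem markers 7 rose and 2 fell in CCA1-ox shoots, where 26.6% of all genes were higher and 28.9% lower. AHA3, a proton pump of companion cells, was 1 of the 2 that fell (−0.32, adjusted p = 1.16e-05), and NAKR1 was among the 7 that rose (0.31). Among the others were SEOR2, a sieve element protein, at 0.62, the phloem differentiation protein OPS at 0.65 and the phloem lectin PP2-A1 at −0.70. Their summed level was 206 to 212 FPKM in CCA1-ox shoots, against 202 to 203 FPKM in WT shoots. In roots 4 of the 10 phloem markers fell and 1 rose, beside 15.4% lower and 20.8% higher of all genes, with SEOR2 at −0.48, SEOR1 at −0.46 and AHA3 at −0.25. Their sum there was 129 to 132 FPKM in CCA1-ox roots, against 143 to 146 FPKM in WT roots, and no phloem marker was at 0 in all libraries of any group. The part of these cells in the SUC2 and SWEET11 values was not tested.

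SUC1 (AT1G71880, chromosome 1, 27054030 to 27056464), a sucrose/proton symporter known from roots and pollen, changed little and in opposite directions in the organs. It had 55.0, 54.4 and 54.7 FPKM in CCA1-ox shoots, against 45.8, 47.2 and 47.5 FPKM in WT shoots (log2 fold change 0.22, SE 0.0274, adjusted p = 1.34e-05). In roots, where it was the most abundant of the 10, SUC1 had 82.6, 87.3 and 87.3 FPKM in CCA1-ox roots, against 92.3, 89.6 and 91.7 FPKM in WT roots (log2 fold change −0.089, SE 0.0274, adjusted p = 0.0217). Neither pair of ranges overlapped. The small fall in roots was not called without WT roots replicate 1 (adjusted p = 0.0758), WT roots replicate 3 (0.0628) or CCA1-ox roots replicate 1 (0.0834), and its log2 value was −0.16 with quantile normalization and −0.15 scaled to summed fragments.

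STP13 (AT5G26340, chromosome 5, 9243398 to 9247540, MSS1 in the table), a hexose/proton symporter induced by stress and pathogens, rose in CCA1-ox shoots and fell in CCA1-ox roots. In shoots STP13 had 5.11, 4.95 and 5.43 FPKM in CCA1-ox shoots, against 1.82, 2.05 and 1.82 FPKM in WT shoots, a mean 2.72 times as high (log2 fold change 1.09, SE 0.0520, adjusted p = 9.35e-10). In roots it had 10.1, 10.9 and 10.4 FPKM in CCA1-ox roots, against 16.5, 16.5 and 17.1 FPKM in WT roots, a mean 0.628 times that of WT (log2 fold change −0.62, SE 0.0520, adjusted p = 7.35e-07). The genotypes overlapped in neither organ, and the difference between roots and shoots was smaller in CCA1-ox than in WT. With a pseudocount of 5 the shoot value was 0.56 and still called.

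STP1 (AT1G11260, chromosome 1, 3777236 to 3780823), the main hexose/proton symporter of seedlings, differed little between the groups. It had 40.9, 39.3 and 39.7 FPKM in CCA1-ox shoots, against 45.2, 42.1 and 42.9 FPKM in WT shoots (log2 fold change −0.12, SE 0.0360, adjusted p = 0.015). In roots STP1 had 52.8, 54.1 and 53.5 FPKM in CCA1-ox roots, against 44.8, 45.2 and 48.7 FPKM in WT roots (log2 fold change 0.21, SE 0.0360, adjusted p = 0.000517). The fall in shoots was not called with quantile normalization (−0.03, adjusted p = 0.517), scaled to summed fragments (−0.0091, adjusted p = 0.86), without WT shoots replicate 1 (0.0728) or without CCA1-ox shoots replicate 2 (0.0526). The rise in roots was called under all 21 alternatives tried.

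**Figure D2:**
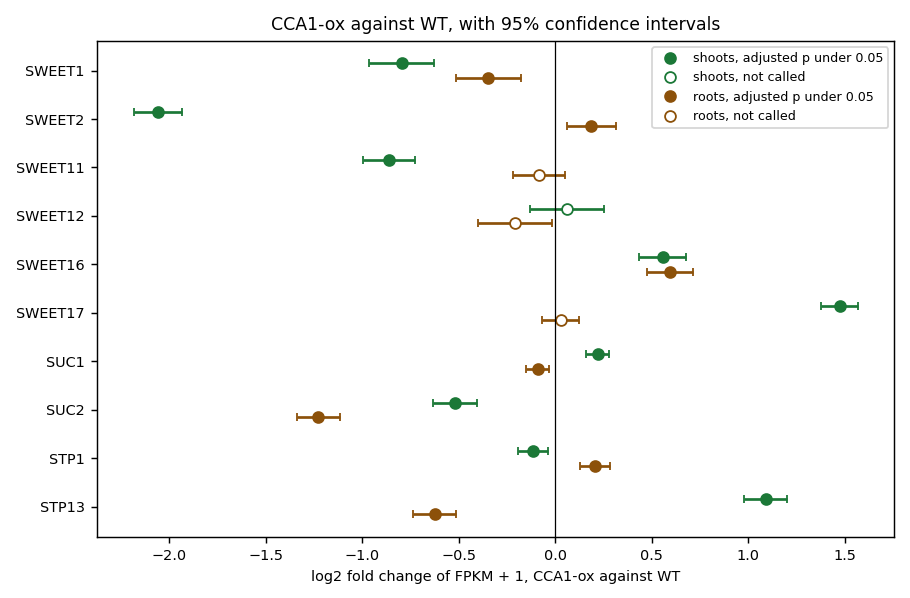
Log2 fold change of FPKM + 1, CCA1-ox against WT (horizontal axis, with 95% confidence intervals), of each carrier in shoots (green) and in roots (brown). Filled points passed an adjusted p under 0.05. SWEET2, SUC1, STP1 and STP13 have both points filled and on opposite sides of 0 in the 2 organs. SWEET1, SWEET16 and SUC2 have both points filled and on the same side.

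The effect of CCA1-ox differed between roots and shoots for 8 of the 10 carriers when the difference itself was tested (the effect in roots minus that in shoots, limma), with a higher value in roots for 4 and a lower value for 4. Among all genes 50.7% passed that test, 27.2% higher and 23.5% lower. SWEET2 had the largest difference (log2 fold change 2.25, SE 0.0823, adjusted p = 1.16e-10), followed by STP13 (log2 fold change −1.72, SE 0.0735, adjusted p = 5.41e-10) and SWEET17 (log2 fold change −1.44, SE 0.0626, adjusted p = 5.99e-10). SUC2 fell in both organs and further in roots (log2 fold change −0.71, SE 0.0733, adjusted p = 3.48e-06). STP1 (0.32) and SUC1 (−0.31) passed with smaller differences, which were 0.15 and −0.48 scaled to summed fragments. With a pseudocount of 5 the difference of STP13 was −1.05 and still called. For SWEET11 (0.78) and SWEET1 (0.45, or 0.29 scaled to summed fragments), both low in roots, the call was lost with a pseudocount of 0.1 (adjusted p = 0.406 and 0.579) and with voom (0.995 and 0.87). SWEET16 did not pass (log2 fold change 0.04, SE 0.0785, adjusted p = 0.699, 95% interval −0.13 to 0.21). SWEET12 did not pass either (log2 fold change −0.27, SE 0.125, adjusted p = 0.0893), but was called lower scaled to summed fragments (adjusted p = 0.0152) and without WT roots replicate 3 (0.019) or CCA1-ox roots replicate 2 (0.0432).

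All 10 carriers differed between WT roots and WT shoots, 6 higher and 4 lower in roots, as did 87.2% of all genes, 45.3% higher and 41.8% lower. STP13 was 8.80 times and SUC1 1.95 times as abundant in WT roots as in WT shoots, with log2 fold changes of 2.61 and 0.95. SWEET11 (−6.95), SWEET12 (−4.05), SWEET1 (−3.19) and SUC2 (−1.88) were the 4 that were lower in WT roots. The size was uncertain for the first 2, which were low in roots. Over the alternatives SWEET11 ran from −9.86 to −4.83 and SWEET12 from −4.80 to −2.78, all called. As a ratio of means, SWEET11 in WT roots was 0.00112 of WT shoots. SWEET2 (0.54), SWEET17 (0.43) and SWEET16 (0.17) were somewhat higher in WT roots, and their values were 0.87, 0.76 and 0.47 scaled to summed fragments. For SWEET16 the call was lost without WT shoots replicate 2 (adjusted p = 0.0598). STP1 differed least (0.089, adjusted p = 0.0331), its ranges in WT roots and WT shoots overlapped, and the call was lost in the fit of WT alone (0.0656) and without WT shoots replicate 2 (0.129), WT shoots replicate 3 (0.0844) or WT roots replicate 3 (0.174, log2 fold change 0.052). The value for STP1 was larger with quantile normalization (0.24) and scaled to summed fragments (0.42, adjusted p = 4.37e-08). With a pseudocount of 5 the values were −1.91 for SWEET1 and 1.65 for STP13.

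In CCA1-ox plants all 10 again differed between roots and shoots, 5 higher and 5 lower in roots, beside 86.7% of all genes, 45.2% higher and 41.5% lower. SWEET17 was the carrier that changed sides, at 0.484 times the CCA1-ox shoot mean in CCA1-ox roots (log2 fold change −1.01) and at 1.37 times the WT shoot mean in WT roots. STP13 was 2.03 times as abundant in CCA1-ox roots as in CCA1-ox shoots (0.90). Ranked by mean, the 4 groups stood apart without overlap of neighbours for SWEET1, SWEET2, SWEET16, SUC1, SUC2 and STP13. Both SUC1 and STP13 ran down from WT roots through CCA1-ox roots and CCA1-ox shoots to WT shoots, and SUC2 and SWEET1 from WT shoots through CCA1-ox shoots and WT roots to CCA1-ox roots.

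Within pairs of carriers of 1 family the balance differed between genotypes. SWEET11 made up 65.4% ± 0.942 in CCA1-ox shoots and 78.3% ± 0.487 in WT shoots of the summed FPKM of SWEET11 and SWEET12 (SD, n = 3 each). SUC2 held 53.5% ± 0.334 in CCA1-ox shoots and 66.0% ± 0.911 in WT shoots of the sum of SUC1 and SUC2, and in roots it held 10.2% ± 0.849 in CCA1-ox roots and 20.8% ± 0.199 in WT roots. SWEET17 took 79.2% ± 1.37 in CCA1-ox shoots and 66.8% ± 2.05 in WT shoots of the tonoplast pair SWEET16 and SWEET17, and the order was the opposite in roots, with 61.3% ± 1.44 in CCA1-ox roots and 70.8% ± 1.65 in WT roots. STP13 took 11.4% ± 0.520 in CCA1-ox shoots and 4.19% ± 0.403 in WT shoots of the pair with STP1, and 16.4% ± 0.379 in CCA1-ox roots and 26.5% ± 0.467 in WT roots. For these values the shares of CCA1-ox and WT libraries did not overlap. The share of SWEET11 in roots rests on few fragments and is not compared. Summed over SWEET11 and SWEET12 the level was 119 ± 2.28 FPKM in CCA1-ox shoots and 181 ± 4.46 FPKM in WT shoots, and over SWEET16 and SWEET17 it was 58.4 ± 0.260 FPKM in CCA1-ox shoots and 24.0 ± 0.721 FPKM in WT shoots. Over the whole SUC family, the sum was 131 ± 2.08 FPKM in CCA1-ox shoots and 152 ± 2.29 FPKM in WT shoots, and 118 ± 4.398 FPKM in CCA1-ox roots and 139 ± 1.95 FPKM in WT roots. These shares and sums were not tested.

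**Figure D3:**
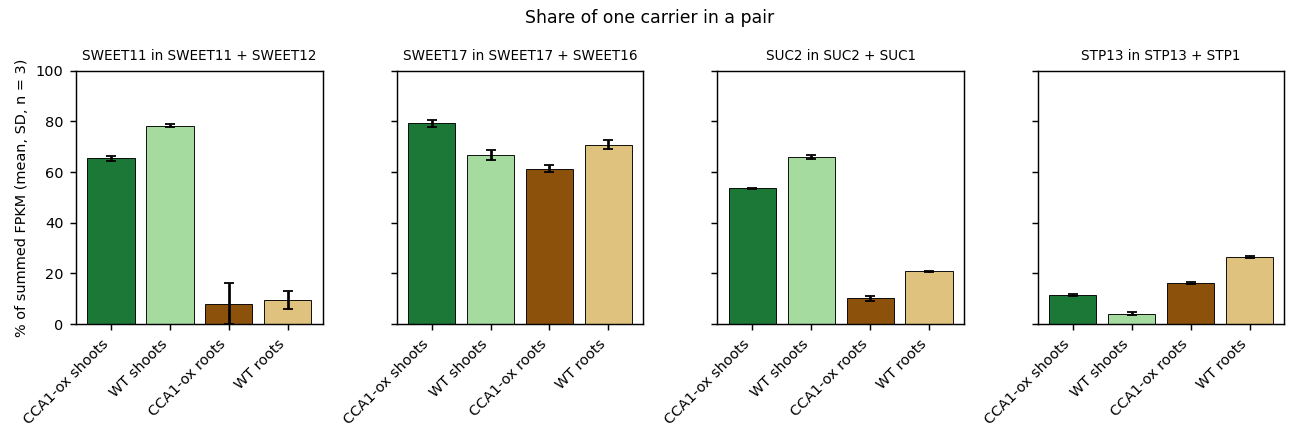
Share of SWEET11, SWEET17, SUC2 and STP13 (vertical axis, percent of the summed FPKM of each pair) in CCA1-ox shoots, WT shoots, CCA1-ox roots and WT roots. Bars are means and error bars SD of 3 libraries. SUC2 is the larger part of its pair in both shoot groups and the smaller part in both root groups.

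Few other genes of the 3 families passed the filter on low values. Of the 30 that are not among the 10 carriers, 9 did, and of these 6 rose and 1 fell in CCA1-ox shoots and 1 rose and 1 fell in CCA1-ox roots. For this and the following lists, the shares of all genes were 26.6% higher and 28.9% lower in shoots and 20.8% higher and 15.4% lower in roots. SWEET13, a sucrose carrier related to SWEET11, rose in both organs (1.17 in shoots, adjusted p = 2.94e-07, and 0.87 in roots, adjusted p = 1.29e-05). SWEET13 stood at 2.84 ± 0.260 FPKM in CCA1-ox shoots and 0.710 ± 0.155 FPKM in WT shoots. It reached an FPKM of 1 only in CCA1-ox libraries, so it passed the filter through the groups where it was high. Its calls therefore only describe these values. SUC4, a sucrose carrier of the tonoplast, rose in shoots (0.20) and fell in roots (−0.33). Among other STP carriers in shoots, STP7 (0.38) and STP3 (0.25) rose and STP5 fell (−0.56). STP5 passed the filter only through WT shoots, where it was high, so its call too is only descriptive. Both SWEET13 and STP5 are in the counts above.

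Of 12 tested carriers outside the 3 families, 4 were higher and 5 lower in CCA1-ox shoots and 3 were higher and 4 lower in CCA1-ox roots. The tonoplast sugar carrier TST1 fell in shoots (−0.60), while ESL1, another tonoplast carrier, rose (0.63) along with GPT1, which brings glucose 6-phosphate into plastids (0.51). In roots TPT, the triose phosphate carrier of chloroplasts (−0.69), ESL1 (−0.52) and TST2 (−0.45) fell. Genes listed under names of invertases or sucrose synthases rose in 7 and fell in 4 of 13 cases in CCA1-ox shoots. Their median was 0.29, beside −0.0083 over all genes, and their enzyme activity was not measured. The vacuolar invertase VINV1 (0.98) and the sucrose synthase SUS6 (0.93) were among those that rose, and the cell wall invertase CWINV1 fell (−1.43), at 3.16 ± 0.316 FPKM in CCA1-ox shoots and 10.2 ± 0.233 FPKM in WT shoots. In roots 4 of the 13 rose and 3 fell, the sucrose synthase SUS1 (−1.06) and CWINV5 (−1.33) among those that fell and CWINV6 among those that rose (0.58). CWINV5 stood at 0.0158 ± 0.0275 FPKM in CCA1-ox roots and 1.56 ± 0.212 FPKM in WT roots. At such levels the pseudocount of 1 presses the log2 value toward 0. CWINV5 passed the filter only through WT roots, where it was high, so its fall, included in the count, is only descriptive. Sucrose synthesis enzymes rose in 2 and fell in 2 of 5 cases in shoots, and rose in 1 and fell in 3 in roots. Among sucrose phosphate synthase genes, SPSA2 rose in shoots (0.41) and fell in roots (−0.18). SPSA1 did the same (0.26 in shoots and −0.15 in roots), and SPSC fell in shoots (−0.30). Of the phosphatases that make the last step to sucrose, SPP2 fell in both organs (−0.37 in shoots and −0.41 in roots). SPP1, the more abundant in roots, rose there (0.33, adjusted p = 4.03e-05), at 83.2 ± 0.957 FPKM in CCA1-ox roots and 66.0 ± 2.19 FPKM in WT roots, where SPP2 had 8.54 ± 0.877 FPKM and 11.6 ± 0.729 FPKM.

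Markers that rise when plant cells run short of sugar were mostly lower. All 6 fell in CCA1-ox roots, by log2 fold changes of −0.75 for DIN2, a beta-glucosidase gene, −0.74 for the asparagine synthetase ASN1 and −0.56 for DIN10 (median −0.50, beside 0.016 over all genes). In CCA1-ox shoots 4 fell and 2 rose (median −0.46, beside −0.0083). DIN10 fell to 21.0 ± 0.349 FPKM in CCA1-ox shoots, against 85.3 ± 1.37 FPKM in WT shoots (−1.97, adjusted p = 1.27e-14), SEN1 fell by 0.78 on the log2 scale, and DIN2 rose (0.60).

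**Figure D4:**
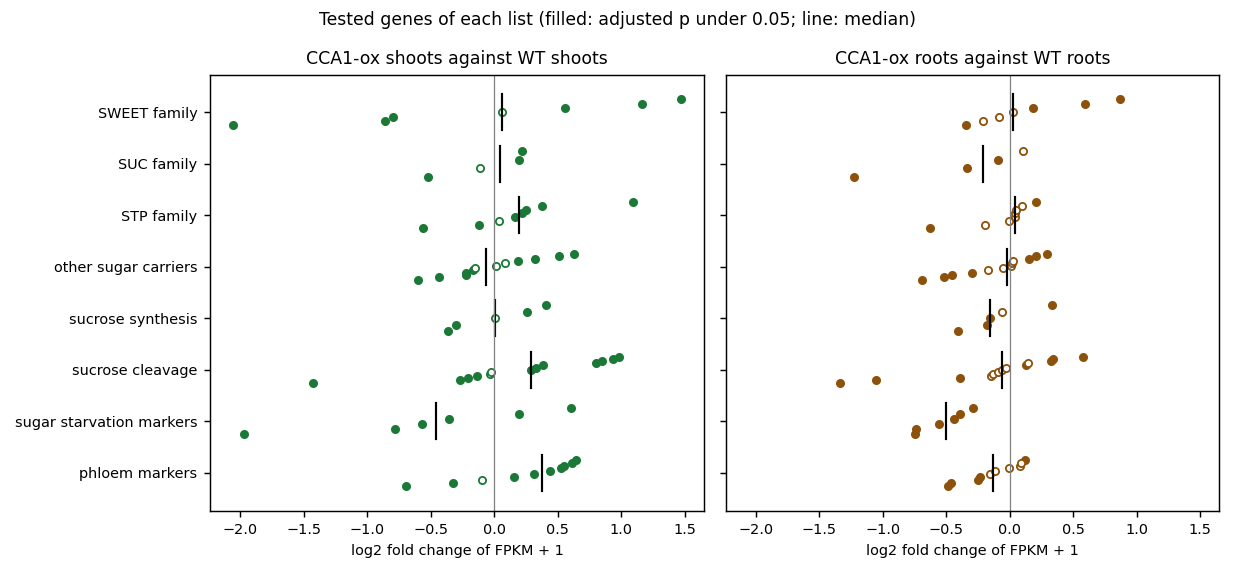
Log2 fold change of FPKM + 1 (horizontal axes), CCA1-ox against WT in shoots (left) and in roots (right), of each tested gene in 8 lists of sugar genes and phloem markers. Filled points passed an adjusted p under 0.05 and vertical lines are list medians. The points of all 6 sugar starvation markers lie left of 0 in roots, while sugar carriers lie on both sides in each organ.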

How the data were processed

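RNA was sequenced from 12 libraries, made per the labels' protocols from column-purified, DNase-treated total RNA with a stranded kit. The authors deposited FPKM for each gene; the submitters' processing notes name TAIR10 as the build. Aligner, counter and strand setting: not given in the sources used here. Each FPKM value times gene length was a multiple of a per-library unit (100% of values whole within 0.1), and the multiples were taken as fragments. The library size behind the deposited FPKM was on average 0.976 times the fragment sum in CCA1-ox shoots, 0.906 in WT shoots, 1.10 in CCA1-ox roots and 1.15 in WT roots, hence the alternative scaled to summed fragments. Replicate pairs had a median chi-square of 1.01 to 1.29, against 0.455 for sampling noise, so each was kept as a separate sample.

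The tests took the 20975 of 33010 genes that reached an FPKM of 1 in 3 or more libraries. A model of 4 group means was fitted to log2(FPKM + 1) with limma 3.58.1 in R 4.3.3 (mean-variance trend, 8 residual degrees of freedom, two-sided, Benjamini-Hochberg adjustment over all genes, called under 0.05). The fit was run on simulated fragments with changes set in CCA1-ox shoots only, which cannot check the calls in roots or in the root minus shoot difference. The log2 scale understates changes of low genes. The members and lists were chosen with earlier results of these data known. Genes named from each other list are mostly among the up to 3 called ones with the largest change per organ. The exceptions were NRT2.1, LHCA4, SPSA1, in shoots AHA3, NAKR1 and COBL9, and in roots CA1 and RBCS3B. These were chosen after their values were seen. Named too are the 3 genes closest in pattern to each carrier. Sequences are from RefSeq's TAIR10.1; its start and end equal those in the table for all 10 carriers and 99.95% of 32548 matched genes. Alternatives were other pseudocounts, filters, scalings and fits, voom, a replicate block and leaving out each library.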

Additional observations from a re-analysis of the deposited data

Results flagged for a closer look

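For 8 carriers the CCA1-ox effect in roots differed from that in shoots by a test of the difference itself (limma, adjusted p under 0.05, log2 effect in roots minus log2 effect in shoots), as it did for 50.7% of all genes tested. SWEET2 rose slightly in roots and fell in shoots, with a difference of 2.25. STP13 fell in roots and rose in shoots, with a difference of −1.72. The difference was −1.44 for SWEET17, which rose in shoots, and −0.71 for SUC2, which fell in both organs. SUC1 was lower in roots and higher in shoots, by a difference of −0.31, and STP1 higher in roots and lower in shoots, by 0.32. The root calls of SWEET2 and SUC1 and the shoot call of STP1 were each lost under some alternatives. The differences of SWEET2, SUC1 and STP1 were called under all 20 alternatives tried for them. The differences of SWEET11, at 0.78, and SWEET1, at 0.45, shrank to 0.0073 and 0.071 with voom on recovered fragments and were not called there.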

How the results depend on the processing

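Of 1040 values (each carrier and comparison under up to 21 alternatives), 1007 kept direction and side of the threshold, 23 lost the call, 6 gained it and 4 reversed, all of them uncalled. SWEET17 in roots turned to −0.022 with quantile normalization and −0.034 scaled to summed fragments, and ran from −0.0011 to 0.076 with 1 library left out. The root minus shoot difference of SWEET16 turned to −0.11 scaled to summed fragments. Carriers called higher in that difference numbered 2 with a pseudocount of 0.1 and 2 with voom, against 4. Scaling to summed fragments moved the share of called genes that were higher to 66.0% in shoots (48.0% as deposited), 38.8% in roots (57.4%), 29.01% in the root minus shoot difference (53.6%) and 65.6% in WT roots against WT shoots (52.0%), and the median of all genes to −0.11 in the difference (0.037), 0.33 in WT roots against WT shoots (0.035) and 0.19 in CCA1-ox roots against CCA1-ox shoots (0.042). In the same order, the shares higher were 51.0%, 55.5%, 42.9% and 50.9% with voom. With quantile normalization they were 41.7%, 50.2%, 55.6% and 53.9%. Same-numbered libraries did not deviate together (correlations −0.0445 to 0.0424 over 18 pairs). With a replicate block 9 carriers were called in shoots and 7 in roots, with no carrier's call changed. SWEET11 in roots, with 1 to 18 fragments a library, is limited by depth.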

Other observations

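The tested genes whose pattern over the 12 libraries lay closest to a carrier were found by the root mean square difference of log2(FPKM + 1), each gene centred on its own mean, which is a description without a test. Closest to SUC2 were AT2G33250, SPA3 (AT3G15354) and AT4G29020, at 0.130, 0.190 and 0.190. AT2G33250 averaged 26.3 FPKM in CCA1-ox shoots and 41.6 in WT shoots, and 4.61 in CCA1-ox roots and 9.96 in WT roots. Closest to STP13 were GPX6 (AT4G11600), CIPK4 (AT4G14580) and AT3G57540, at 0.125, 0.146 and 0.152, and the closest of them, GPX6, averaged 105 FPKM in CCA1-ox shoots and 55.9 in WT shoots, and 241 in CCA1-ox roots and 335 in WT roots. SWEET17 had AT1G33970, NAC096 (AT5G46590) and AT1G26730, at 0.0871, 0.0882 and 0.104, and SWEET16 had ANNAT4 (AT2G38750), AT2G46600 and AT3G11690, at 0.0856, 0.108 and 0.110. The calcium-binding annexin ANNAT4 averaged 33.1 FPKM in CCA1-ox shoots and 22.8 in WT shoots, and 37.4 in CCA1-ox roots and 24.4 in WT roots. SWEET2 stood farther from its closest gene than any of the other 9 carriers from theirs; its closest were ERD5 (AT3G30775), MES7 (AT2G23560) and CLC-B (AT3G27170), at 0.336, 0.375 and 0.393, against a range of 2.91 in SWEET2 itself. Closest to SWEET1 were C/VIF2 (AT5G64620), DEG1 (AT3G27925) and FAP3 (AT1G53520), at 0.108, 0.122 and 0.126, of which C/VIF2 is an inhibitor of invertases. SWEET11 had AT4G22517, AT3G16660 and AT1G22690, at 0.0736, 0.0914 and 0.119, and SWEET12 had NdhS (AT4G23890), PHOT2 (AT5G58140) and KCS3 (AT1G07720), at 0.101, 0.111 and 0.138. SUC1 had REV3 (AT1G67500), AT5G63370 and RCD1 (AT1G32230), at 0.0355, 0.0359 and 0.0413, and STP1 had FPS2 (AT4G17190), AT1G12310 and AT3G58580, at 0.0381, 0.0433 and 0.0479.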
